A study of Mus musculus with 12 samples.

Results

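The interferon-inducible large GTPases are cytosolic enzymes that interferon-stimulated cells make in large amounts and that attack microbes living inside the cell. Their mRNA was followed in cultures of fibroblast-like synoviocytes, which line the joint cavity and belong to the connective tissue, taken from mice of a model of arthritis induced by tumour necrosis factor (TNF). Members were chosen by name, as table entries for Gbp2, Gbp3, Gbp7, Gbp9, Irgm1, Irgm2, Igtp, Iigp1, Gvin1 and Mx1, which is 10 names beside a table of 36875 gene symbols. Of these, 9 were found, and all 9 were among the 15049 genes past the expression filter. Mx1 was not analysed here. The resolution group (sample descriptions DOX OFF) came from animals that drank 5% sucrose water with 1 mg/ml doxycycline over 3 weeks, after which doxycycline was stopped. The inflammation group (DOX ON) came from animals on the same doxycycline water for 3 weeks. The homeostasis group (WT) came from animals on 5% sucrose water alone for 3 weeks, although the protocol names arthritis mice for all samples. Each group held 4 libraries. The sources used here do not give the genotype, strain, sex, age, the time after withdrawal, or the promoter or cell type that drives TNF. They also do not say whether each library was a separate animal or culture.

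The family is built around a GTP-binding domain and includes several branches. Guanylate-binding proteins (GBPs) assemble into coats on the membrane of pathogen-containing vacuoles and on bacteria that reach the cytosol, and they promote inflammasome signalling. Immunity-related GTPases (IRGs) come as effectors that break vacuole membranes, such as Iigp1, and as regulators that sit on the cell's own membranes and hold the effectors inactive there, namely Irgm1, Irgm2 and Igtp. Gvin1 encodes a very large inducible GTPase whose function is little understood, and Mx1 is a dynamin-like antiviral protein. Type I interferons reach such genes mainly through the interferon-stimulated response element (ISRE), to which STAT2 and IRF9 are recruited, and interferon gamma mainly through the gamma-activated site (GAS).

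Promoter windows are shown for the 6 members with an entry in the RefSeq promoter table (GRCm38.p6). Gbp9, Iigp1 and Gvin1 have no entry there, and a link between motifs and levels was not tested. Each window spans 250 bases before to 50 after the RefSeq gene start, 5′ to 3′ on the gene's strand. The windows are chr3:142620413-142620712 for Gbp2, chr3:142559794-142560093 for Gbp3 and chr3:142530086-142530385 for Gbp7, all on the plus strand. They are chr11:48871371-48871670 on the minus strand for Irgm1, and chr11:58214727-58215026 for Irgm2 and chr11:58199306-58199605 for Igtp on the plus strand. Capitals mark matches, on either strand, to the ISRE core (GAAA NN GAAA, with N any base) and to the GAS core (TTC NNN GAA).
Gbp2: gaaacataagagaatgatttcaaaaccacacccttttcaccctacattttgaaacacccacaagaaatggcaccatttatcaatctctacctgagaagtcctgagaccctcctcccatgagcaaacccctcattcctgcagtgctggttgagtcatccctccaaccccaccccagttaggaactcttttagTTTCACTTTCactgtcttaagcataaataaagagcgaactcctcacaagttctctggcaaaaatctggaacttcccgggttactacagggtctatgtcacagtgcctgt
Gbp3: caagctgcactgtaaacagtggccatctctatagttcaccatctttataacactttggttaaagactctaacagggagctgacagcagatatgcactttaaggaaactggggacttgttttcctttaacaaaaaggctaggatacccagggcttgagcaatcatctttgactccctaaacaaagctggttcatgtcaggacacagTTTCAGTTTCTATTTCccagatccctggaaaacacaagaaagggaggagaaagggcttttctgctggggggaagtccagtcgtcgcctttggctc
Gbp7: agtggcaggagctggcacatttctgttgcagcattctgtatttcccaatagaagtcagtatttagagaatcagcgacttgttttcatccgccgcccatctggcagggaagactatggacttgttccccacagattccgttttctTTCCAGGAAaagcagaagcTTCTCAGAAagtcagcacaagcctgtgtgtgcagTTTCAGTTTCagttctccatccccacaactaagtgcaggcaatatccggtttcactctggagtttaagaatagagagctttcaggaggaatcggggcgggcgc
Irgm1: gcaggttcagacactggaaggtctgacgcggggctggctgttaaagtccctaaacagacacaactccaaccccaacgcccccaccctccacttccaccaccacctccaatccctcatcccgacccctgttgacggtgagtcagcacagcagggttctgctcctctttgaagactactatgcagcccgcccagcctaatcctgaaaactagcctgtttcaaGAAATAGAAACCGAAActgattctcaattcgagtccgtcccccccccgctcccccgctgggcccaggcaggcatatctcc
Irgm2: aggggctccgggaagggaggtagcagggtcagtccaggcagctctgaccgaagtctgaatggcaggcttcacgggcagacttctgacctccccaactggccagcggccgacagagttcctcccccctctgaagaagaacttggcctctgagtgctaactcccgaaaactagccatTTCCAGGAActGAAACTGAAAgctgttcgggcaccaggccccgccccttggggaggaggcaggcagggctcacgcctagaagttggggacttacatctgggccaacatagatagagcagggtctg
Igtp: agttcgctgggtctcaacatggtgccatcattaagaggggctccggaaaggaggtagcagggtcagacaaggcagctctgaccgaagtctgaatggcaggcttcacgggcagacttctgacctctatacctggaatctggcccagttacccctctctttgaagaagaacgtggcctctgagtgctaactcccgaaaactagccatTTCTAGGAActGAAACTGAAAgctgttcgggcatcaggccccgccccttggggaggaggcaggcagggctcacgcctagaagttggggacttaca

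All 6 windows held the ISRE core, always within the 64 bases before the start. Among all 32851 promoter windows of that length, 3.44% held it. Gbp3 and Irgm1 each carried 2 overlapping copies, at -45 to -36 and -39 to -30 in Gbp3 and at -30 to -21 and -24 to -15 in Irgm1, counted from the gene start. In Gbp2, Gbp3 and Gbp7 the match read on the minus strand, and in Irgm1, Irgm2 and Igtp on the plus strand. The GAS core was found in 3 windows, against 8.3% of all windows. Gbp7 held 2 copies, at -106 to -98 and -87 to -79, while Irgm2 held 1 copy at -75 to -67 and Igtp 1 at -45 to -37. In Irgm2 and Igtp a GAS core ended 2 bases upstream of the ISRE core, and both windows were 93.6% identical over 264 aligned bases. The promoter table gives Gbp3 a second window farther downstream, in which neither core was matched. Of 10 other genes of these GTPase families with a window, 7 held the ISRE core and 4 the GAS core. Irgq, a distant relative, was among those without an ISRE core. Of 13 dynamin-related GTPase genes outside the interferon system, 0 held either core. These matches describe letters and show no binding.

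**Figure D1:**
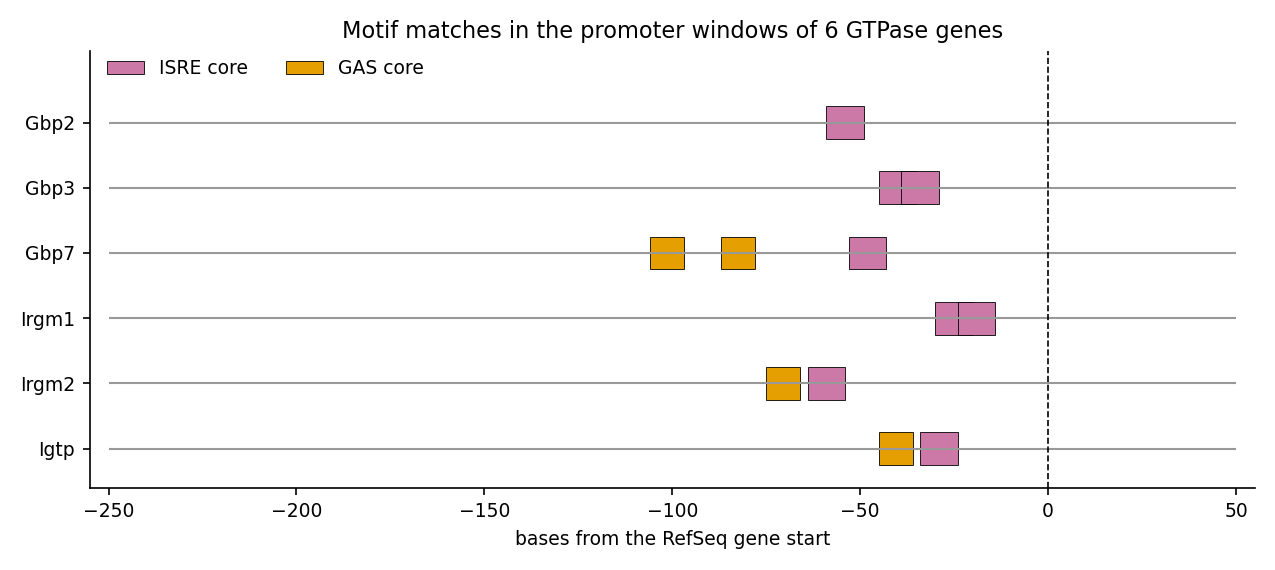
Positions of ISRE core and GAS core matches (boxes) in the promoter windows of 6 members, one row per gene, in bases from the RefSeq gene start (dashed line). All 6 windows hold an ISRE core within 64 bases before the start, and Gbp7, Irgm2 and Igtp also hold GAS cores upstream of it.

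The members lie in clusters on the GENCODE annotation (GRCm38), and all are protein-coding. Gbp7 (chr3:142530342-142550149), Gbp3 (chr3:142560026-142573209) and Gbp2 (chr3:142620602-142638008) follow each other on chromosome 3. Gbp9 (chr5:105077630-105139539) belongs to the chromosome 5 cluster, where its annotation overlaps Gbp4 and Gbp8 on the same strand. Igtp (chr11:58199556-58207591) and Irgm2 (chr11:58199618-58222782) overlap on chromosome 11, which also holds Irgm1 (chr11:48861968-48871683). Iigp1 lies on chromosome 18, and Gvin1 (chr7:106156556-106215326) on chromosome 7. Similar genes can exchange reads, so the share of each gene's 150-base transcript stretches that also occur in another gene was counted. That share was 0% for Gbp2, Gbp3, Gbp9, Irgm1 and Iigp1, 0.437% for Irgm2, 0.739% for Igtp and 8.77% for Gbp7, whose partner is the overlapping predicted gene Gm43802. For Gvin1 it was 96.2%, almost all with the neighbouring copy Gm4070, so values of Gvin1 alone depend on how reads were divided between them.

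Total counts per library ran from 18120745 to 34971537, and p-values measure the spread between these libraries, which may be technical. Levels are given in CPM, counts scaled to a common library size. The 13 synoviocyte markers summed to 11220 to 16670 CPM in resolution, 21850 to 25330 in inflammation and 29400 to 31750 in homeostasis. Single markers differed widely, for example Col1a1 at means of 3118, 8150 and 9560 CPM and Fap at 2.89, 2.74 and 5.16 CPM, in the same order. In resolution against homeostasis 2 of the 13 were called higher and 8 lower, beside 27.5% and 25.8% of all tested genes. Summed over 19 macrophage markers, levels were 66.55 to 75.15 CPM in resolution, 711 to 770.3 in inflammation and 148 to 182 in homeostasis, with no marker at 0 in any group. Summed over 10 neutrophil markers, levels were 54.8 to 69.7 CPM in resolution, 54.5 to 67.3 in inflammation and 12.5 to 32.0 in homeostasis, with Retnlg at 0 in every group. Most of each sum was Camp, at means of 44.3, 43.3 and 17.3 CPM, and S100a8, at 16.7, 15.8 and 3.08 CPM, in the same order. None of the other neutrophil markers averaged above 0.386 CPM in any group, the mean of Ltf in inflammation. Both neutrophil markers that passed the expression filter, S100a8 and Camp, were called higher in both doxycycline groups than in homeostasis, as 8 of the members were, and their part in the members' results was not tested. Of 13 T and NK cell markers, 7 were at 0 counts in resolution, 9 in inflammation and 11 in homeostasis, among them Cd3e, Cd8a and Ncr1 in every group. Chondrocyte markers summed to 64.7 to 97.8 CPM in resolution, 38.1 to 47.3 in inflammation and 871 to 1125 in homeostasis. Y-linked Ddx3y had 0 counts in resolution, 3 in inflammation and 2150 in homeostasis. X-linked Xist averaged 174 CPM in resolution, 110 in inflammation and 10.8 in homeostasis, where libraries ranged from 6.74 to 13.5 CPM. Homeostasis libraries thus held both Xist and Y-linked reads, and the reason was not tested. Sex and the contrasts against homeostasis cannot be told apart. Doxycycline water and the WT label also set homeostasis apart from both other groups and cannot be told apart from these contrasts. Mouse Tnf averaged 0.308 ± 0.143 CPM in resolution, 1.023 ± 0.518 in inflammation and 3.97 ± 2.20 in homeostasis (SD, n = 4 each). Homeostasis libraries 3 and 4 lay above libraries 1 and 2 in all 9 members, by 1.19 times for Gbp2 and by 2.03 to 5.72 times for the others. The share of all tested genes with this order was not counted, so it is not shown to be particular to the members.

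In resolution and in inflammation, 8 of the 9 members stood more than 4-fold above homeostasis, with every library of both groups above every homeostasis library. Separation alone, for each group by itself and at any fold, was seen in 21.9% of all tested genes in resolution and in 18.1% in inflammation. The share of all tested genes that were also more than 4-fold higher, or separated in both groups, was not counted. Mean levels in resolution were the highest of the 3 groups in every member. Gbp2, the most abundant member per transcript length, departed from this pattern and was higher in resolution alone. Differences were tested with edgeR's quasi-likelihood test on all 12 libraries, with Benjamini-Hochberg adjustment over the 15049 genes and a threshold of 0.05. The 3 comparisons share groups and are not independent of each other.

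**Figure D2:**
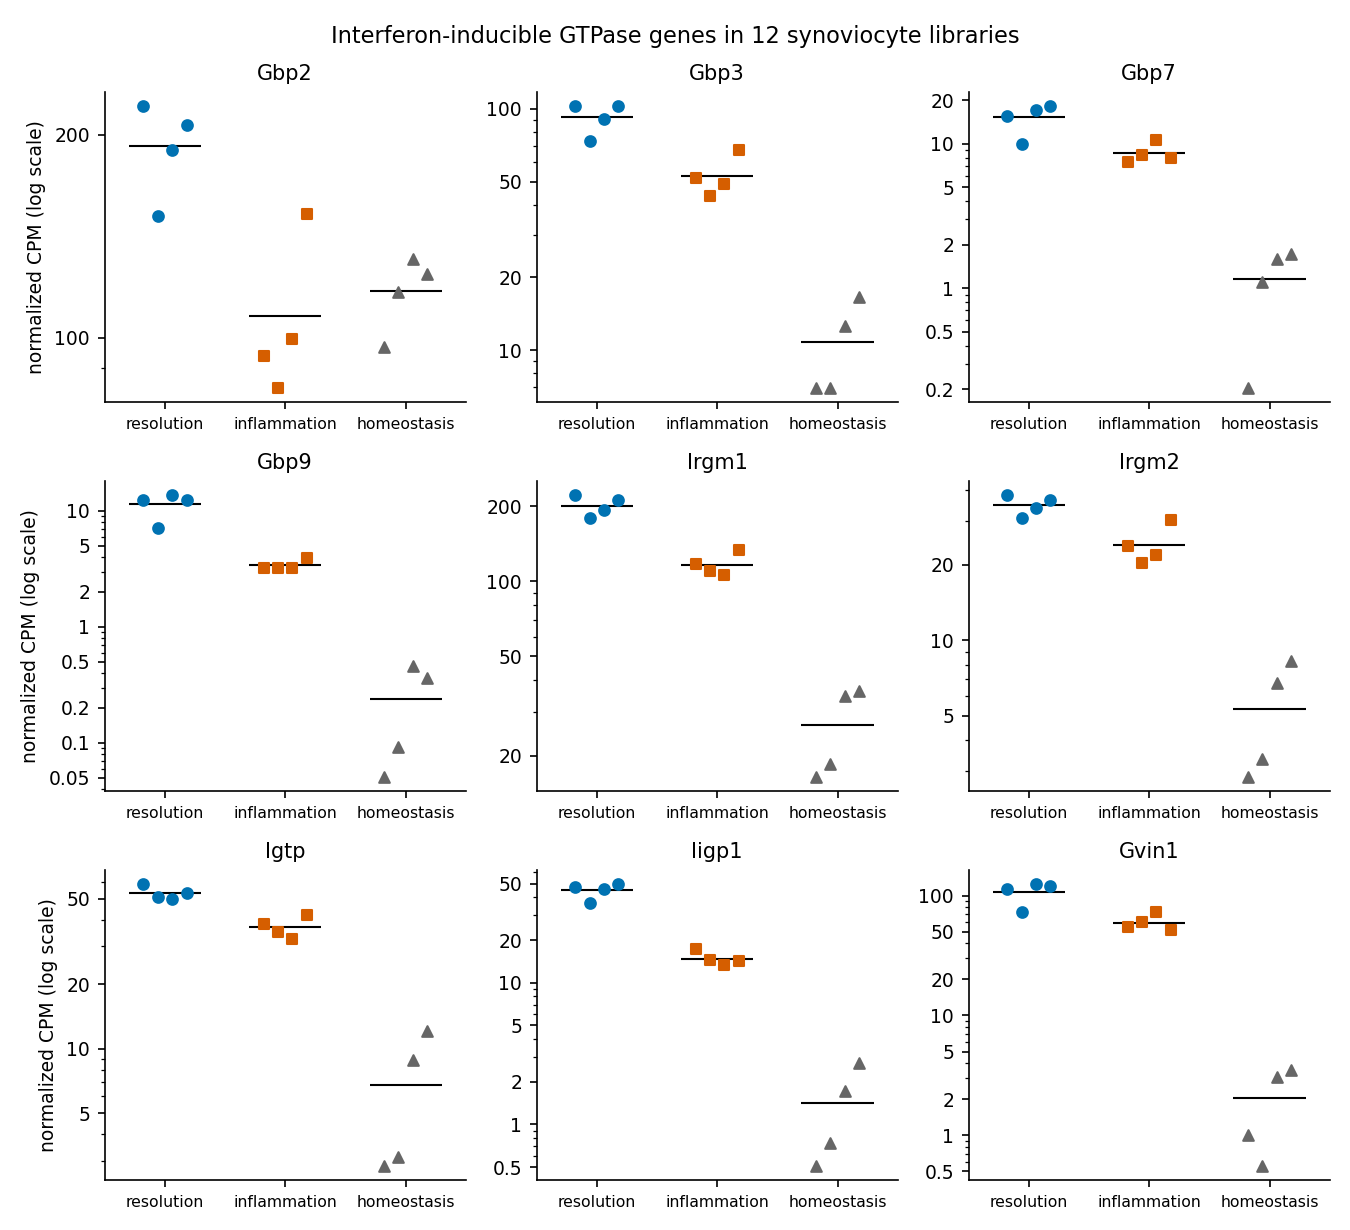
Normalized CPM (log axis, a separate range per gene) of the 9 members in the 4 libraries of resolution, inflammation and homeostasis. Points are libraries, ordered 1 to 4 within a group, and black lines are group means. In all members but Gbp2 both other groups lie clear of homeostasis, and homeostasis libraries 3 and 4 lie above 1 and 2.

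Among the GBPs, Gbp2 had 221, 152, 190.1 and 207 CPM in resolution libraries 1 to 4, 94.0, 84.1, 99.4 and 153 CPM in inflammation libraries 1 to 4, and 96.8, 117, 131 and 124 CPM in homeostasis libraries 1 to 4. Resolution lay above homeostasis in every library, while inflammation library 4 stood just above the lowest resolution library and the other inflammation libraries fell within or below the homeostasis range. Gbp2 was 1.64-fold higher in resolution than in homeostasis (log2 fold change 0.71 ± 0.17 SE, adjusted p = 0.00165) and 1.79-fold higher in resolution than in inflammation (0.84 ± 0.17, adjusted p = 0.00228). Between inflammation and homeostasis its log2 fold change was -0.12 ± 0.17 (adjusted p = 0.602), and no alternative setting made that difference pass.

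Gbp3, a GBP of the same chromosome 3 cluster, had 102.5, 73.5, 90.6 and 102.8 CPM in resolution, 51.8, 43.5, 48.9 and 67.6 CPM in inflammation, and 6.96, 6.96, 12.6 and 16.5 CPM in homeostasis. The 3 groups did not overlap. Gbp3 rose 8.61-fold in resolution against homeostasis (log2 fold change 3.11 ± 0.24, adjusted p = 3.94e-09) and 4.94-fold in inflammation against homeostasis (2.30 ± 0.24, adjusted p = 3.6e-07). Against inflammation, resolution was 1.74-fold higher (0.80 ± 0.22, adjusted p = 0.019), a call lost in 6 of 20 alternative settings.

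Gbp7 has been tied in mice to the assembly of oxidative defences in macrophages. It had 15.5, 10.0, 17.1 and 18.2 CPM in resolution, 7.49, 8.39, 10.5 and 8.00 CPM in inflammation, and 0.203, 1.11, 1.60 and 1.72 CPM in homeostasis, where library 1 held only 4 counts. Both doxycycline groups were clear of homeostasis, and resolution library 2 fell inside the inflammation range. Gbp7 rose 13.1-fold in resolution against homeostasis (log2 fold change 3.71 ± 0.33, adjusted p = 2.39e-08) and 7.41-fold in inflammation (2.89 ± 0.33, adjusted p = 1.38e-06). The 1.76-fold difference between resolution and inflammation (0.82 ± 0.28) stood at the threshold, with an adjusted p of 0.0484, and was lost in 10 of 20 alternative settings, including the removal of any single inflammation library.

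Gbp9, from the chromosome 5 cluster, was the least abundant member and had the largest rise of the 4 GBPs. Its levels were 12.4, 7.05, 13.7 and 12.4 CPM in resolution, 3.20, 3.23, 3.23 and 3.93 CPM in inflammation, and 0.0508, 0.0923, 0.456 and 0.362 CPM in homeostasis. The homeostasis values rest on 1, 3, 8 and 8 counts, so the fold changes against them are imprecise. The groups did not overlap, and resolution library 2 was the lowest of its group. Gbp9 rose 49.9-fold in resolution against homeostasis (log2 fold change 5.64 ± 0.37, adjusted p = 2.91e-10), 14.9-fold in inflammation against homeostasis (3.90 ± 0.38, adjusted p = 2.04e-07) and 3.34-fold in resolution against inflammation (1.74 ± 0.26, adjusted p = 0.000123).

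Among the IRG regulators, Irgm1, which protects mice from several intracellular pathogens and restrains interferon responses, was the most abundant. It had 221, 178, 193 and 211 CPM in resolution, 118, 109.7, 106 and 133 CPM in inflammation, and 16.4, 18.5, 34.7 and 36.2 CPM in homeostasis, with no overlap between groups. Irgm1 rose 7.62-fold in resolution against homeostasis (log2 fold change 2.93 ± 0.21, adjusted p = 1.45e-09) and 4.42-fold in inflammation against homeostasis (2.14 ± 0.21, adjusted p = 1.72e-07). Resolution was 1.73-fold above inflammation (0.79 ± 0.20, adjusted p = 0.011), a call lost in 1 of 20 alternative settings, an adjustment for GC content and transcript length (0.57, adjusted p = 0.122).

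Irgm2, a regulator found on Golgi membranes, had 38.0, 30.9, 33.6 and 36.5 CPM in resolution, 23.8, 20.3, 21.9 and 30.3 CPM in inflammation, and 2.84, 3.36, 6.72 and 8.29 CPM in homeostasis. Igtp, also called Irgm3 and found on the endoplasmic reticulum and lipid droplets, had 58.6, 51.1, 49.98 and 53.1 CPM in resolution, 38.0, 34.9, 32.4 and 42.2 CPM in inflammation, and 2.84, 3.14, 8.89 and 12.1 CPM in homeostasis. Every resolution library of both genes lay above every inflammation library, but by a narrow margin for Irgm2, 30.9 against 30.3 CPM. Against homeostasis, Irgm2 rose 6.60-fold in resolution (log2 fold change 2.72 ± 0.26, adjusted p = 5.6e-08) and 4.57-fold in inflammation (2.19 ± 0.25, adjusted p = 1.77e-06). Igtp rose 7.94-fold in resolution (2.99 ± 0.33, adjusted p = 6.47e-07) and 5.51-fold in inflammation (2.46 ± 0.32, adjusted p = 1.13e-05). Between resolution and inflammation neither passed, with log2 fold changes of 0.53 ± 0.24 for Irgm2 (adjusted p = 0.128) and 0.53 ± 0.30 for Igtp (adjusted p = 0.228).

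Iigp1, the IRG effector that oligomerizes on vacuoles of the parasite Toxoplasma, had 47.6, 36.3, 46.2 and 49.6 CPM in resolution, 17.3, 14.5, 13.4 and 14.1 CPM in inflammation, and 0.508, 0.739, 1.71 and 2.72 CPM in homeostasis. The 3 groups were widely separated. Iigp1 rose 32.2-fold in resolution against homeostasis (log2 fold change 5.01 ± 0.32, adjusted p = 1.94e-10) and 10.6-fold in inflammation against homeostasis (3.41 ± 0.31, adjusted p = 7.1e-08). It was 3.03-fold higher in resolution than in inflammation (1.60 ± 0.26, adjusted p = 0.000232), and this call held in all 20 alternative settings.

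Gvin1 had 113, 72.5, 125 and 121 CPM in resolution, 54.5, 60.2, 72.3 and 51.2 CPM in inflammation, and 1.015, 0.554, 3.08 and 3.53 CPM in homeostasis. The estimated step from homeostasis was the largest among the 9 members, at 54.6-fold in resolution (log2 fold change 5.77 ± 0.40, adjusted p = 5.14e-09) and 30.2-fold in inflammation (4.92 ± 0.39, adjusted p = 6.07e-08). It rests on 20, 18, 54 and 78 homeostasis counts. In resolution the estimate for Gbp9 (5.64 ± 0.37) lay within these standard errors. Resolution library 2 stood just above the highest inflammation library, at 72.5 against 72.3 CPM, and the 1.81-fold difference between the groups did not pass (0.86 ± 0.31, adjusted p = 0.0699). The near-identical Gm4070 averaged 136 CPM in resolution, 72.4 in inflammation and 2.72 in homeostasis.

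Counted over the members, 9 of 9 were called higher in resolution than in homeostasis, where 27.5% of all tested genes were called higher. In inflammation against homeostasis 8 of 9 were called higher, beside 19% of all tested genes. Between resolution and inflammation 6 of 9 were called higher, beside 8.52% of all tested genes. No member was called lower in any comparison, beside 25.8%, 18.3% and 7.64% of all tested genes in the same order of comparisons. The median log2 fold change of the members was 3.11 for resolution against homeostasis, 2.46 for inflammation against homeostasis and 0.82 for resolution against inflammation, and over all tested genes it was -0.01, -0.01 and 0.02 in the same order. Every library of the first group lay above every library of the second for 9, 8 and 7 members, beside 21.9%, 18.1% and 8.94% of all tested genes. After the levels were adjusted for GC content and transcript length, a setting added after the data were seen, 3 members rather than 6 passed between resolution and inflammation, and these were Gbp2, Gbp9 and Iigp1. With homeostasis libraries 3 and 4 as the only controls the medians were 2.67 and 1.88 for resolution and inflammation, and with libraries 1 and 2 they were 4.13 and 3.55.

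**Figure D3:**
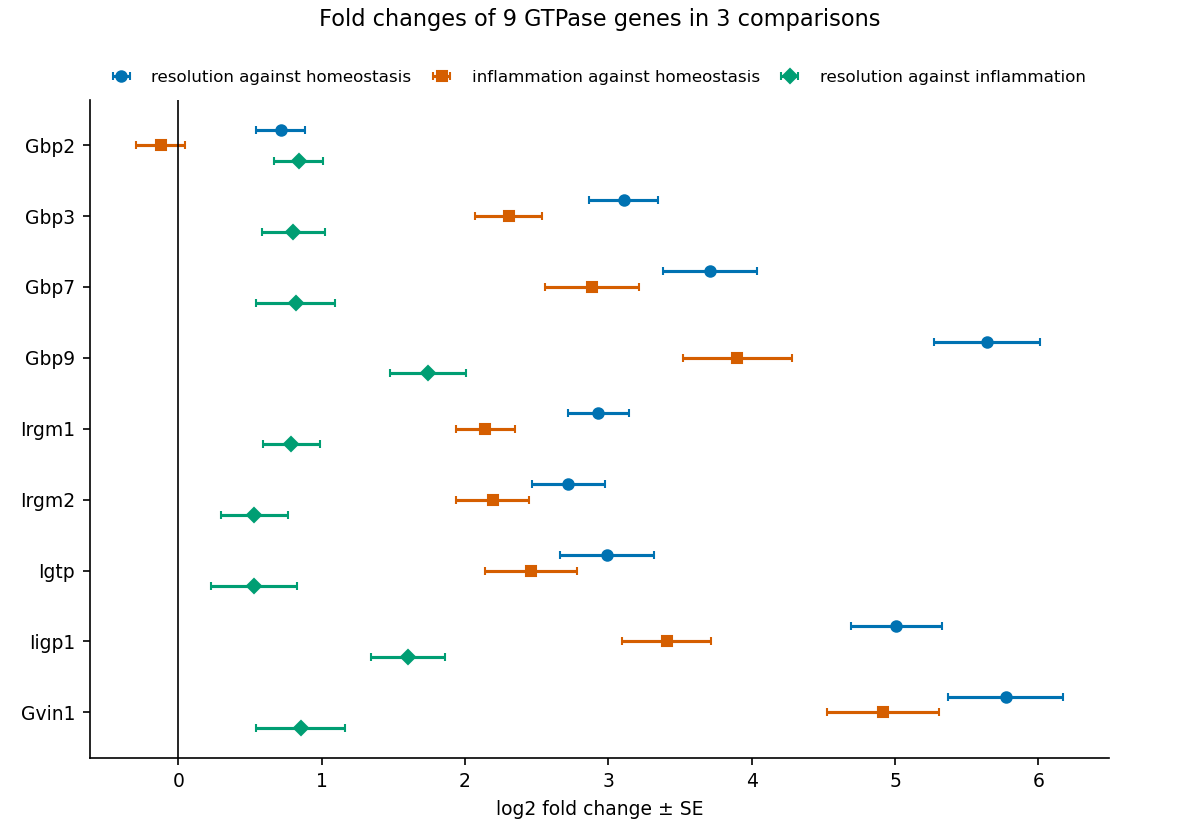
Log2 fold change with its standard error (bars) of the 9 members, one row per gene, for resolution against homeostasis, inflammation against homeostasis and resolution against inflammation. Gbp2 sits near 0 for inflammation against homeostasis, at -0.12, whereas the other 8 members lie between 2.14 and 4.92 there.

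On the RPKM scale, which divides the CPM by the transcript length in kilobases, Gbp2 stood first in every group, with means of 76.5 in resolution, 42.8 in inflammation and 46.6 in homeostasis. In resolution Irgm1 followed at 34.6, Gbp3 at 28.3, Igtp at 26.3, Gvin1 at 12.0, Irgm2 at 9.42, Iigp1 at 7.72, Gbp7 at 2.70 and Gbp9 at 2.20 RPKM. The library ranges of neighbours in that order overlapped, except between Gbp2 and Irgm1, between Igtp and Gvin1 and between Iigp1 and Gbp7. In homeostasis the gap below Gbp2 was wider, with Irgm1 next at 4.55, Igtp at 3.34, Gbp3 at 3.30 and Irgm2 at 1.44 RPKM. The remaining members were low there, with Iigp1 at 0.244, Gvin1 at 0.227, Gbp7 at 0.206 and Gbp9 at 0.0465 RPKM. For the 8 members other than Gbp2, mean levels in inflammation lay between those of resolution and homeostasis, for example 16.2 RPKM for Gbp3 and 2.54 RPKM for Iigp1.

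The departure of Gbp2 was also described within libraries, as the log2 ratio of each member's count to that of Gbp2, which removes library scaling. Gbp2 was chosen for this because its values had been seen to differ, so the ratios are given without a test. Relative to Gbp2, the mean ratios of the 8 other members were higher in resolution than in homeostasis by 2.14 (Irgm2) to 5.36 (Gvin1) log2 units, and higher in inflammation than in homeostasis by 2.38 (Irgm1) to 5.38 (Gvin1). Between resolution and inflammation the mean ratio differed by 0.84 for Gbp9 and by 0.73 for Iigp1. It differed by -0.08 to -0.03 for Gbp3, Gbp7, Irgm1 and Gvin1, by -0.32 for Irgm2 and by -0.33 for Igtp.

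**Figure D4:**
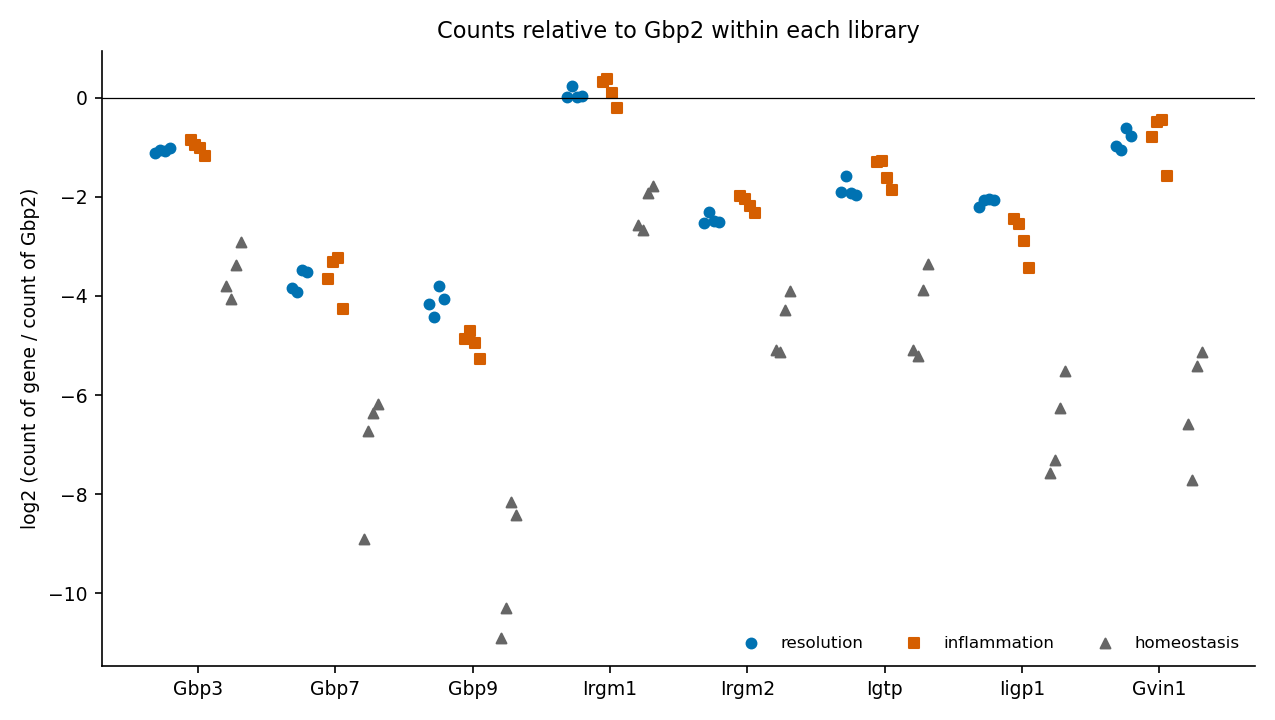
Log2 ratio of each member's count to the Gbp2 count in the same library, for 8 members (columns) and the 4 libraries of each group (points). Ratios in resolution and inflammation lie above those in homeostasis for all 8 members, and Gbp9 and Iigp1 are also separated between resolution and inflammation.

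Summing each branch makes its level independent of how reads were divided among the summed genes. It does not cover reads shared with genes outside the sums, such as Gm43802 for Gbp7 (8.77% of its transcript stretches) and Gm43302 for Gbp6 (53.7%) and Gbp10 (57.4%). The 11 GBP entries summed to 432 ± 67.6 CPM in resolution, 240 ± 51.0 in inflammation and 168 ± 23.8 in homeostasis (SD, n = 4 each). That sum rose by 1.36 ± 0.16 log2 units in resolution against homeostasis (adjusted p = 1.07e-06) and by 0.85 ± 0.16 in resolution against inflammation (adjusted p = 0.00107). In inflammation against homeostasis it rose by 0.51 ± 0.16 (adjusted p = 0.0164), a call lost without inflammation library 4 (0.37, adjusted p = 0.0643). Gbp2 made up 44.6% of the GBP sum in resolution, 44.4% in inflammation and 69.8% in homeostasis, and Gbp3 made up 21.4%, 22.1% and 6.26% in the same groups.

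The 12 IRG entries summed to 395 ± 37.0 CPM in resolution, 215 ± 24.5 in inflammation and 45.2 ± 20.98 in homeostasis. The IRG sum rose by 3.13 ± 0.24 log2 units in resolution against homeostasis (adjusted p = 3.65e-09), by 2.25 ± 0.24 in inflammation against homeostasis (adjusted p = 4.66e-07) and by 0.88 ± 0.22 in resolution against inflammation (adjusted p = 0.012), a call lost after the adjustment for GC content and length (0.69, adjusted p = 0.124). Within it, Irgm1 held 50.9% in resolution, 54.3% in inflammation and 60.1% in homeostasis, while the effector Iigp1 held 11.35%, 6.95% and 2.87%. The 4 Gvin1-like entries summed to 246 ± 54.0 CPM in resolution, 134 ± 21.6 in inflammation and 4.83 ± 3.35 in homeostasis. Their sum rose by 5.71 ± 0.50 log2 units in resolution (adjusted p = 1.44e-06) and by 4.83 ± 0.48 in inflammation (adjusted p = 9.99e-06), both against homeostasis. Between resolution and inflammation it differed by 0.88 ± 0.40 (adjusted p = 0.153). Gvin1 itself took 43.8%, 44.6% and 43.0% of the sum in resolution, inflammation and homeostasis, nearly the same share in each group.

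The macrophage marker sum ran opposite to the GTPases between resolution and inflammation. It was lowest in resolution, at 66.55 to 75.15 CPM, where all 3 branch sums were highest. Of 18 tested markers 17 were called lower in resolution than in inflammation and none higher, beside 7.64% and 8.52% of all tested genes. Against homeostasis, 13 macrophage markers were lower in resolution and 17 were higher in inflammation, beside 25.8% and 19% of all tested genes. In inflammation the markers therefore moved with the members, and their part in that comparison was not tested. In bulk RNA, fewer cells of a type and less RNA per cell cannot be told apart.

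**Figure D5:**
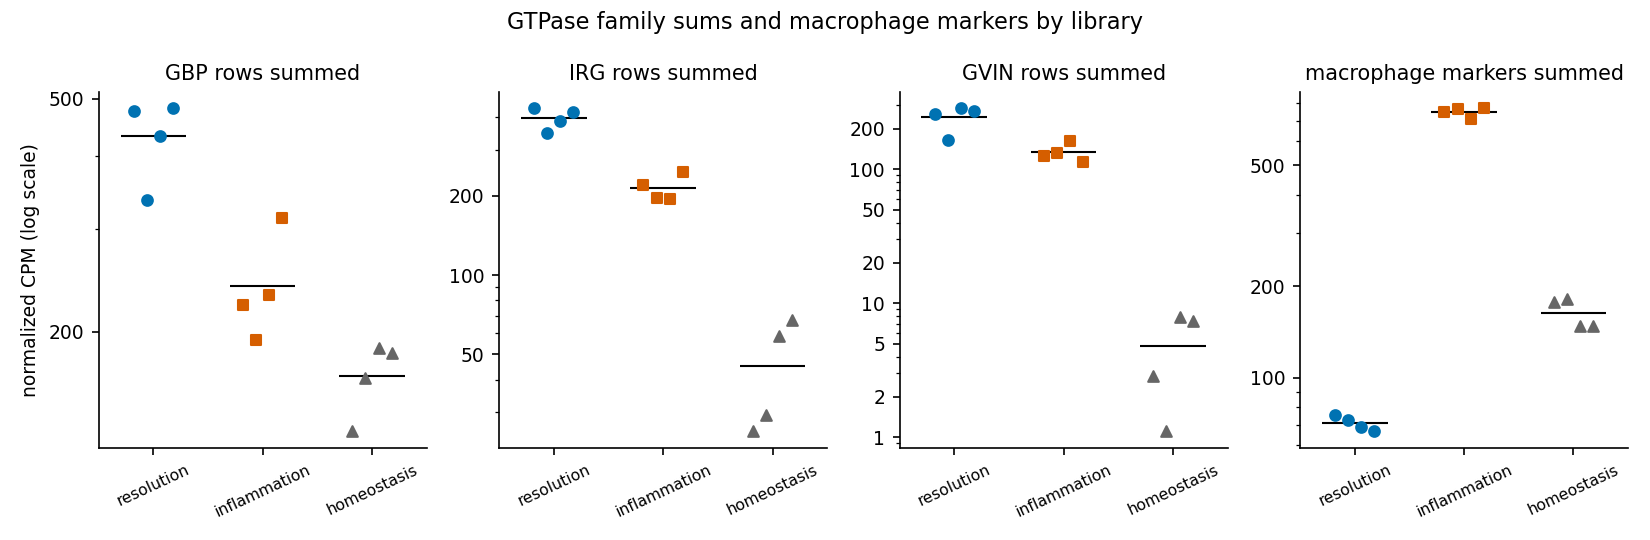
Normalized CPM (log axis, a separate range per panel) by library for the summed GBP, IRG and Gvin1-like (GVIN) entries and for the summed macrophage markers, in resolution, inflammation and homeostasis, with black lines at the means. The 3 branch sums are highest in resolution, where the macrophage marker sum is lowest.

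Other genes of the same GTPase families, outside the members, were also mostly higher. Of 16 tested, 14 were called higher and 1 lower in resolution against homeostasis, 13 higher and 0 lower in inflammation against homeostasis, and 13 higher and 0 lower in resolution against inflammation. Over all tested genes, 27.5%, 19% and 8.52% were called higher and 25.8%, 18.3% and 7.64% lower in the same order. The median log2 fold changes of the 16 genes were 3.67, 2.01 and 1.39 in that order. Gbp6 averaged 28.5 CPM in resolution, 11.7 in inflammation and 2.63 in homeostasis, with log2 fold changes of 3.45 ± 0.21 (adjusted p = 8.63e-11), 2.17 ± 0.20 (adjusted p = 1.07e-07) and 1.28 ± 0.18 (adjusted p = 6.44e-05) in the same comparisons. Tgtp2, an IRG effector, stood at 8.10 CPM in resolution, 1.73 in inflammation and 0.413 in homeostasis and rose by 2.23 ± 0.33 log2 units in resolution against inflammation (adjusted p = 9.84e-05). Of the 150-base transcript stretches, 59.1% for Gbp6 and 68.4% for Tgtp2 recur in another gene, so their single values are uncertain. Gm4070, also among the 16, shares 91.2% of its stretches with the member Gvin1. Tgtp1 shares 62.5% with Tgtp2. The counts and medians over the 16 therefore hold near-copies of each other and of a member, and are not separate from the members' results. Gbp5, which promotes inflammasome assembly, did not pass in inflammation against homeostasis, with a log2 fold change of -0.57 ± 0.27 (adjusted p = 0.101), and was higher in resolution than in inflammation (0.88 ± 0.27, adjusted p = 0.0297). Irgq, counted among the 16 as a distant relative and not as a known interferon-inducible gene, was the 1 called lower in resolution against homeostasis (-0.60 ± 0.21, adjusted p = 0.0197). Of 15 dynamin-related GTPase genes outside the interferon system, 5 were higher and 2 lower in resolution against homeostasis, 2 higher and 1 lower in inflammation against homeostasis, and 1 higher and 0 lower in resolution against inflammation. The counts called higher in this list were near the 27.5%, 19% and 8.52% of all tested genes.

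Upstream of the GTPases, Ifng and Ifnb1 were the interferon genes looked at. Ifng had 0 counts in all 12 libraries, which allows at most 0.0858 to 0.166 CPM per library for counting error, and Ifnb1 had 7 counts in resolution, 13 in inflammation and 0 in homeostasis. Of 22 tested genes of interferon signalling, 9 were called higher and 3 lower in resolution against homeostasis, beside 27.5% and 25.8% of all tested genes. In inflammation against homeostasis 6 were higher and 4 lower, a split near the 19% and 18.3% of all tested genes. In resolution against inflammation 3 were higher and 1 lower, beside 8.52% and 7.64%. Among factors recruited to the ISRE, Stat2 averaged 102 CPM in resolution, 95.4 in inflammation and 28.7 in homeostasis, and Irf9 averaged 65.55, 60.6 and 30.1 CPM in the same groups. Both rose in both doxycycline groups against homeostasis, Stat2 by 1.84 ± 0.19 log2 units in resolution (adjusted p = 2.4e-07) and 1.74 ± 0.19 in inflammation (adjusted p = 9.94e-07). Neither passed between resolution and inflammation (adjusted p = 0.738 for Stat2 and 0.745 for Irf9).

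The kinase Jak2, which serves the interferon gamma receptor, averaged 118 CPM in resolution, 56.9 in inflammation and 49.1 in homeostasis. It rose in resolution against inflammation, by 1.05 ± 0.16 log2 units (adjusted p = 0.000135), and its difference between inflammation and homeostasis did not pass (0.21 ± 0.16, adjusted p = 0.307), as for Gbp2. Jak1 and Nlrc5, also among the signalling genes, had the same calls. In resolution against inflammation they rose by 0.67 ± 0.17 (adjusted p = 0.0132) and 0.91 ± 0.23 (adjusted p = 0.0114). Between inflammation and homeostasis neither passed (adjusted p = 0.242 for Jak1 and 0.0629 for Nlrc5). Irf1, an interferon-induced factor required for full GBP induction in mice, averaged 35.0 CPM in resolution, 26.4 in inflammation and 37.4 in homeostasis and fell in inflammation against homeostasis, by 0.50 ± 0.14 log2 units (adjusted p = 0.00967). Among genes chosen as responding mainly to type I interferon, 11 of 12 were called higher in both doxycycline groups against homeostasis and none lower, and 3 were higher and 1 lower in resolution against inflammation. Over all tested genes, 27.5% were higher in resolution and 19% in inflammation against homeostasis. In resolution against inflammation 8.52% of all tested genes were higher and 7.64% lower. The type I gene called lower there was Siglec1, at means of 0.996 CPM in resolution, 5.42 in inflammation and 0.606 in homeostasis. Siglec1 was highest in inflammation, as the macrophage marker sum was, and a part of macrophages in this list was not tested. Among genes chosen as responding mainly to interferon gamma, 2 of 7 tested were higher and 1 lower in resolution against homeostasis, 1 higher and 1 lower in inflammation against homeostasis, and 0 higher and 1 lower in resolution against inflammation. The share called higher was near that of all tested genes in both comparisons against homeostasis (27.5% and 19%). Several of the latter genes are also markers of antigen-presenting cells, so the macrophage values above stand beside these counts, and their part was not tested.

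Genes whose products work with the GTPases were called higher in part. Of 30 tested, 15 were called higher and 5 lower in resolution against homeostasis, where 27.5% of all tested genes were higher and 25.8% lower. In inflammation against homeostasis 10 were higher and 3 lower, beside 19% and 18.3% of all tested genes. In resolution against inflammation 6 were higher and 3 lower, beside 8.52% and 7.64%. Casp4, the inflammasome caspase that binds bacterial lipopolysaccharide exposed with the help of GBPs, averaged 17.7 CPM in resolution, 4.82 in inflammation and 6.11 in homeostasis. It rose by 1.88 ± 0.20 log2 units in resolution against inflammation (adjusted p = 2.07e-06) and by 1.54 ± 0.20 against homeostasis (adjusted p = 3.09e-06). Casp1, its partner in interleukin-1 processing, averaged 7.80 CPM in resolution, 3.11 in inflammation and 0.858 in homeostasis, and rose in all 3 comparisons. Trim21, a ubiquitin ligase, averaged 29.7 CPM in resolution, 17.8 in inflammation and 7.10 in homeostasis and rose by 2.06 ± 0.16 log2 units in resolution against homeostasis (adjusted p = 5.23e-09). Tax1bp1, an autophagy receptor, averaged 253 CPM in resolution, 169 in inflammation and 89.3 in homeostasis and rose by 1.51 ± 0.14 log2 units in the same comparison (adjusted p = 2.94e-08). Fntb, a subunit of the enzyme that attaches farnesyl groups, fell by 1.11 log2 units there (SE 0.16, adjusted p = 1.53e-05), and Nlrp3, an inflammasome sensor, by 2.31 (SE 0.27, adjusted p = 7.69e-07).

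Across the 12 libraries, log2 CPM of 8 members followed the mean profile of the other members closely, with Pearson r of 0.963 to 0.995, whereas Gbp2 had r = 0.520. The 12 points fall into 3 groups, so these values mostly describe group differences, and they carry no test. The 8 genes outside the members with the most similar profile were Ifi47, Phf11d, Art3, Parp9, Cp, Ifit1, Ifit3 and Ifi203, with r of 0.988 to 0.995 over the same libraries. Ifi47, itself an IRG, averaged 20.6 CPM in resolution, 10.9 in inflammation and 3.10 in homeostasis. Cp, which encodes the copper protein ceruloplasmin, averaged 312 CPM in resolution, 187 in inflammation and 45.7 in homeostasis. Within groups, resolution library 2 was the lowest of its group in 8 of 9 members and inflammation library 4 the highest in 6 of 9. How often this held over all tested genes was not counted.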

How the data were processed

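Per the labels' protocols, 12 libraries of poly(A) RNA were read in pairs of 150 bases, to 6 G per sample. The authors deposited 1 table of estimated counts per gene symbol, not normalized. The submitters' processing notes name the build GRCm38.p3. The sources used here name no aligner, counter, strand setting or annotation. Of the values 1.43% were not whole, none of them in a member. Of 36930 entries, 13 without values were dropped, 42 repeats were summed, and counts were rounded. Groups came from the sample titles. Within groups the reduced chi-square of library pairs was 10.04 to 112.2, so no pair agreed within sampling noise.

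Genes passing edgeR's default filter (15049) were tested in edgeR 4.0.16 (R 4.3.3, limma 3.58.1) with TMM scaling, the robust quasi-likelihood F test on all 12 libraries, group as the only term and Benjamini-Hochberg adjustment. Levels are TMM-scaled CPM as mean ± SD, and SE is the log2 fold change divided by the root of F. RPKM used GENCODE exon lengths. A count of 0 was taken to allow up to 3 counts, for counting error only. The test was tried on simulated data first. Alternatives were 2 other scalings, 2 other filters, DESeq2 1.42.0, only the 2 groups compared, a replicate block, leaving out each library, subsets of the controls, and GC and length offsets. The members and lists were chosen with earlier results of these data known. All members are named. From other lists come counts, and genes with the smallest p or that a result turns on. Similar profiles were ranked by Pearson r. Gbp5, Irgq, Fntb and Cp were among genes singled out after their values were seen.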

Additional observations from a re-analysis of the deposited data

Results flagged for a closer look

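Of 36 sets of 4 libraries looked at (9 members and 3 branch sums in 3 groups), 1 held a library that stood apart by Dixon's criterion. Gbp9 had 3.93 CPM in inflammation library 4, against 3.20 to 3.23 CPM in the other 3 inflammation libraries, a gap of 0.951 of the group's range. Chance alone marks about 1 in 20 such sets. The value remains below every resolution library of Gbp9, the lowest of which had 7.05 CPM.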

How the results depend on the processing

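Against homeostasis, 9 members in resolution and 8 in inflammation were called higher in each of 22 alternatives. Over members, comparisons and alternatives, 549 results kept direction and side of the threshold, 17 lost and 10 gained a call, and 0 reversed. The losses were all in resolution against inflammation (Gbp7 in 10 of 20 alternatives, Gbp3 in 6, Irgm1 in 1), where between 3 and 9 members were called, 3 of them with GC and length offsets and 9 without an expression filter or with only the 2 groups compared. The Gvin1-like sum then passed without an expression filter (0.85, adjusted p = 2.66e-06) and with only the 2 groups compared (0.87, adjusted p = 0.00111). Leaving out 1 library gave 0.79 to 1.03 for it, and it passed without homeostasis 2 (0.87, adjusted p = 0.0116). The GBP sum in inflammation against homeostasis did not pass with homeostasis 3 and 4 as the only controls (0.40, adjusted p = 0.102), and leaving out 1 library gave 0.37 to 0.62. The IRG sum in resolution against inflammation was 0.69 (adjusted p = 0.124) with GC and length offsets, which covered 90.6% of tested genes. The causes were not tested. Over all genes, 1282 were higher and 1149 lower in resolution than in inflammation, and 947 and 1282 with GC and length offsets. Leaving out 1 library gave 482 (resolution 4) to 2360 (resolution 2) higher and 760 to 1831 lower.

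Same-numbered libraries correlated between -0.228 and 0.214 in their deviations from the group means, 4 of 12 pairs over 0.1, and 3 of 12 had their own number as best partner, so the numbers were not taken as pairs. With a replicate block 5 members passed in resolution against inflammation, Gbp7 no longer among them (0.80, adjusted p = 0.0623), and no other call on a member changed. Depth limits Gbp9 and Gbp7 in homeostasis, where single libraries held as few as 1 and 4 counts. Iigp1 and Gvin1 were also low there, with as few as 10 and 18 counts.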
